A study of Homo sapiens with 3 samples.

Results

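Cancer-testis antigens were examined in a human melanoma line in which 54 of the 30982 gene names on the array, with 65 of its 41000 probes, were taken by name. The names were those that begin with MAGEA, MAGEB, MAGEC, SSX or PAGE and a digit, or with GAGE, XAGE, CTAG or BAGE, together with PRAME. The line, 1205Lu, is an established human melanoma line that came from a lung metastasis of a mouse xenograft of WM793 cells. OM, the original monolayer, was kept for 14 days in RPMI-1640 with serum. MB, the stem cell-like melanoma bodies, grew for 14 days in hESC medium (DMEM F-12 with serum replacement). NM, the new monolayer, came from such bodies returned for 10 days to the serum medium, with residual bodies taken out. Each population is 1 RNA sample on 1 array, so a ratio between arrays has no replicate check and no test across samples was made. OM and NM differ from MB in medium and in growth form at once, and these cannot be told apart.

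Cancer-testis antigens are proteins made in germ cells of the testis, silent in most other adult tissues and made again in many tumours, where T cells can recognise them. Many of their genes lie on the X chromosome in families of near-identical copies, and their silencing outside the germ line rests largely on methylation of DNA at the promoter. Melanoma is the tumour in which MAGE, BAGE and PRAME were discovered.

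Signals are the processed intensities of Agilent's Feature Extraction software in arbitrary units (a.u.), not scaled between arrays. A probe was taken as above background where the software marked it well above background, and a gene where any of its probes was. The lowest signal so marked was 20.9 a.u. on OM, 19.4 a.u. on MB and 29.1 a.u. on NM. Negative-control spots match no transcript, and of 153 on each array 4 (OM), 1 (MB) and 4 (NM) carried the mark, and the brightest of them reached 153 a.u. on OM, 54.2 a.u. on MB and 172 a.u. on NM. A faint signal of a single spot therefore lay within the range that negative controls reached. Ratios were formed after division of each array by a housekeeping mean (GAPDH, ACTB, HSP90AA1), which was 0.978 times the OM value on MB and 0.877 times on NM. Each probe binds with its own strength, so signals of different probes are set only against background and give no order of transcript levels between genes.

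Most cancer-testis antigen genes were at background in all 3 populations, and PRAME and the brighter probe named BAGE were far above it in all of them. The other probe named BAGE was at background, and which transcript the bright one bound was not tested. Of the 54 member genes, 14 were above background on OM, against 68.9% of all gene names. On MB 16 were, against 69.7%, and on NM 11 were, against 63.5%. In all, 17 genes were above background on at least 1 array, 11 on all 3 and 37 on none.

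The name rule also took in genes outside the families it names, which share their letters. The CTAGE genes, named for cutaneous T-cell lymphoma, are a separate family whose broadly expressed member CTAGE5 is now called MIA2 and works in export from the endoplasmic reticulum. CTAGE1 and CTAGE5 are themselves listed as cancer-testis genes, so the counts without this family leave out listed genes too. SSX2IP encodes a centrosome and cell junction protein that binds SSX2. Without these 7 genes, 47 remained, of which OM had 8 above background, MB 10 and NM 5. Among the 44 genes with all probes placed on the X chromosome the counts were 6, 7 and 3. Of all gene names, 68.9% (OM), 69.7% (MB) and 63.5% (NM) were above background. The lowest signal so marked was higher on NM, 29.1 a.u., than on OM and MB, so faint genes were less readily counted there. The 37 probes of the 47 genes that were above background on no array had a median signal of 5.22 a.u. on OM (36 probes used), 4.62 a.u. on MB and 6.84 a.u. on NM. The medians of the negative-control spots were 4.89, 4.48 and 6.68 a.u. on the same arrays. These probes were picked because they lacked the mark on every array, so low medians were largely fixed in advance. A signal at this level does not show that a transcript is absent, only that it was not detectable on the array.

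**Figure D1:**
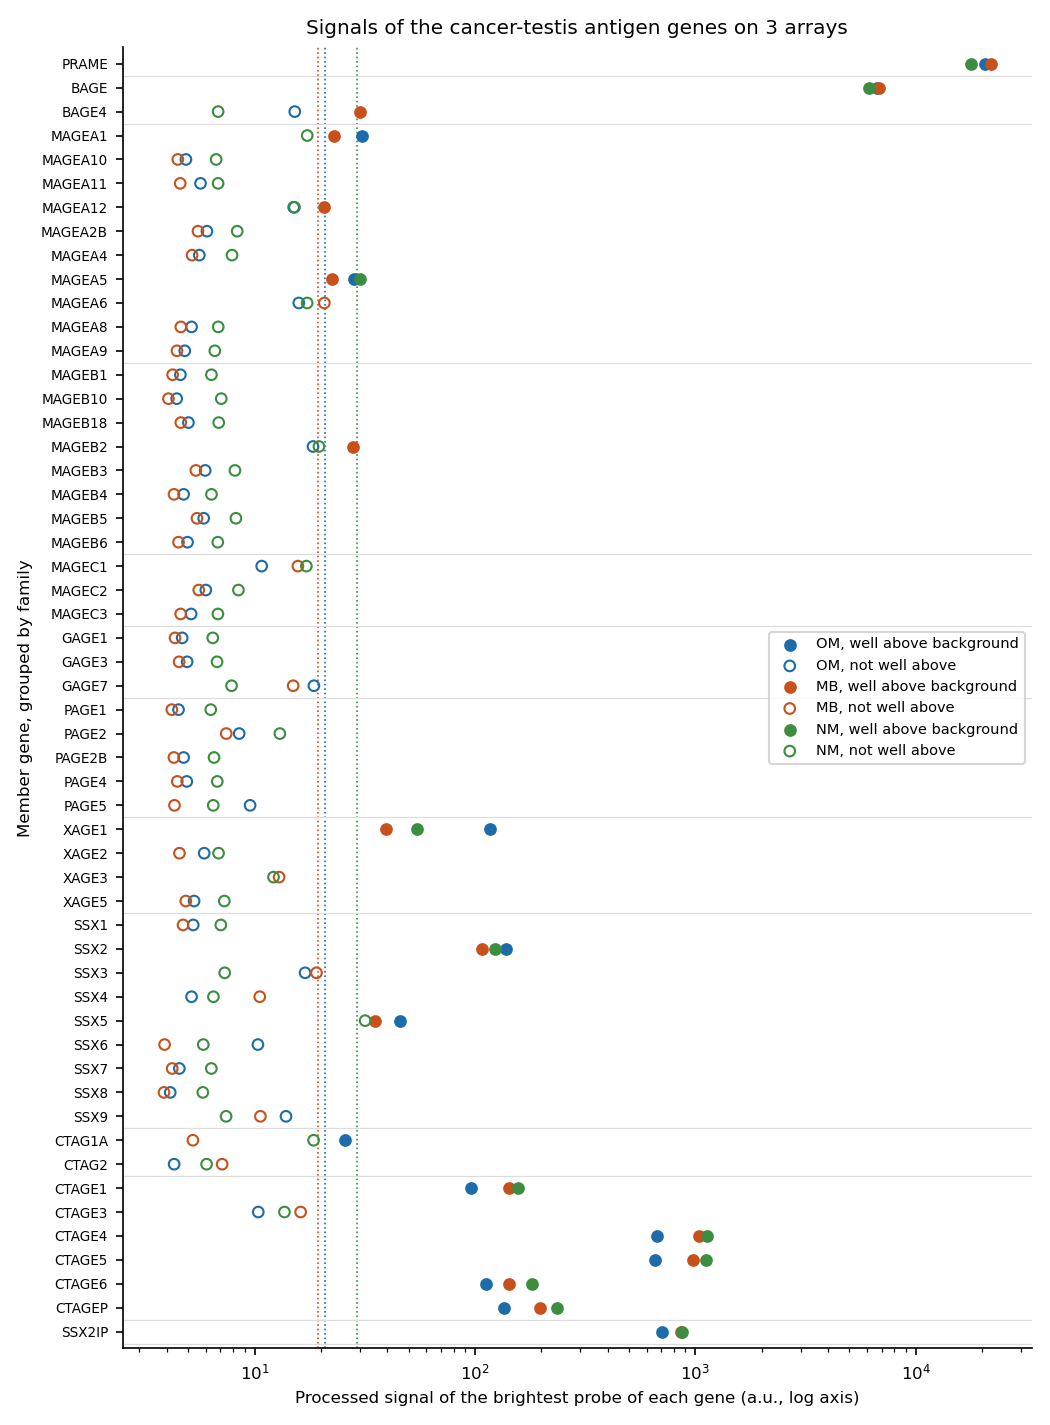
Signal of each of the 54 member genes on the log axis, by its brightest probe, on OM, MB and NM, with filled points for signals well above background and open points for the others. Dotted lines mark the lowest signal so marked on each array, 20.9 a.u. on OM, 19.4 a.u. on MB and 29.1 a.u. on NM. PRAME and the brighter probe named BAGE stand far to the right of them on all 3 arrays. The XAGE3 spot of OM, which was marked as an outlier, is not drawn.

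PRAME encodes a leucine-rich repeat protein that represses retinoic acid receptor signalling and acts as the substrate receptor of a CUL2 ubiquitin ligase. The array holds 2 probes of it, whose opening 30 bases are shown because they read different stretches of the transcript. They lie on the minus strand of chromosome 22 in the hg17 build, at chr22:21214760-21214819 and at chr22:21215556-21215615 in this order.
PRAME, first probe: tggggagatacatcttatagagttagaaat
PRAME, second probe: gtgatgaaccccttggaaaccctctcaata

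The first PRAME probe gave 20713 a.u. on OM, 21863 a.u. on MB and 17883 a.u. on NM. The second gave 7486 a.u. on OM, 7657 a.u. on MB and 5434 a.u. on NM. Both probes were high on every array and lowest on NM before scaling. Scaled, the first probe had log2 ratios of 0.11 for MB over OM, -0.13 for NM over MB and -0.02 for NM over OM. Single spots of this brightness vary with an SD of 0.07 in each of these log2 ratios, as measured on probes printed in 10 spots, and this SD is technical only. It is the spread of spots within arrays and holds no labelling or hybridisation differences between arrays. The software's error model gave a larger error, 0.20 in each of these log2 ratios. The second probe differed from the first in NM, with log2 ratios of -0.34 over MB and -0.27 over OM. Scaled PRAME signals differed by at most 1.26-fold between populations by either probe, and the sign of its MB over OM ratio turned with the scaling, to -0.20 by spike-in controls.

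BAGE genes encode short peptides of a family that lies near centromeres, and copies of it are nearly alike. Of the 2 probes named BAGE, the probe placed on chromosome 21 was at background on all 3 arrays. The other, which stands for an alternatively spliced form and is placed at chrY:57340019-57340078 in hg17, was bright. Its signal was 6634 a.u. on OM, 6812 a.u. on MB and 6114 a.u. on NM, and its log2 ratios were 0.07 for MB over OM and 0.00 for NM over MB. These differences were at most 1.06 times the technical SD. Over 45 bases this probe is 91.1% identical to a probe of the gene MGC70870, which gave 1144, 1285 and 1086 a.u. on OM, MB and NM. Of those 45 bases, 30 are given here, with the bases of MGC70870 that differ in capitals.
BAGE, bright probe, bases 1 to 30: atcacaaagaataaatacaactttttcctt
MGC70870, bases 16 to 45: atcacaaagaataaataGaacttttCcctt

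Which of the related transcripts the bright probe bound was not tested. BAGE4 was above background on MB alone, at 29.9 a.u. against 15.2 a.u. on OM and 6.83 a.u. on NM, at least 1.46-fold higher on MB than on OM.

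MAGE-A, MAGE-B and MAGE-C proteins bind RING-finger ubiquitin ligases and steer them to new substrates. Of 10 MAGE-A genes, OM had 2 above background, MB 3 and NM 1, all of them faint. MAGEA1, the antigen by which the family was found, gave 30.8 ± 5.39 a.u. on OM, 23.0 ± 4.70 a.u. on MB and 17.3 ± 6.36 a.u. on NM, where the errors are those of the software's error model for a single spot. It was marked above background on OM and MB and not on NM. MAGEA5, now regarded as a pseudogene, gave 28.1 ± 5.03 a.u. on OM, 22.5 ± 4.49 a.u. on MB and 30.02 ± 6.55 a.u. on NM, marked on all 3 arrays. MAGEA12 was marked on MB alone, at 20.7 a.u. against 15.0 a.u. on OM and 15.2 a.u. on NM. The scaled ratio of MB to OM was 1.31-fold lower for MAGEA1, 1.08 times the technical SD of its log2 value, and 1.22-fold lower for MAGEA5, 0.81 times that SD. These differences did not exceed what single faint spots vary by, or barely did so. The SD at this brightness rests on only 2 probes printed in 10 spots.

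MAGEA6 is the only member printed in 10 spots, which gives a faint member a measured error. Its protein, with TRIM28, marks the AMPK subunit encoded by PRKAA1 for degradation. Its mean was 15.9 ± 3.66 a.u. (SD over 8 spots used) on OM, 20.7 ± 7.53 a.u. (10 spots) on MB and 17.3 ± 4.74 a.u. (10 spots) on NM. Of the spots used, 0 of 8 on OM, 3 of 10 on MB and 0 of 10 on NM were marked well above background, while 1 of the 2 OM spots left out as outliers carried the mark, so the probe counts as not above it. Even so, the dimmest of its spots was brighter than 148 of the 153 negative-control spots in OM, than 151 in MB and than 148 in NM. Its spots lay above the bulk of the negative controls on every array and overlapped between the 3 arrays.

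The MAGEA6 and MAGEA12 probes share a stretch of 29 bases that differs at 2 positions, shown with the differing bases of MAGEA12 in capitals. In hg17 the probes lie at chrX:151540737-151540796 and chrX:151570480-151570539. A low signal of these probes cannot be given to one gene of the family alone, and other MAGE-A copies are alike as well.
MAGEA6: ctgcaccatatggtaaagatcagtggagg
MAGEA12: ctgcaccatTtgCtaaagatcagtggagg

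**Figure D2:**
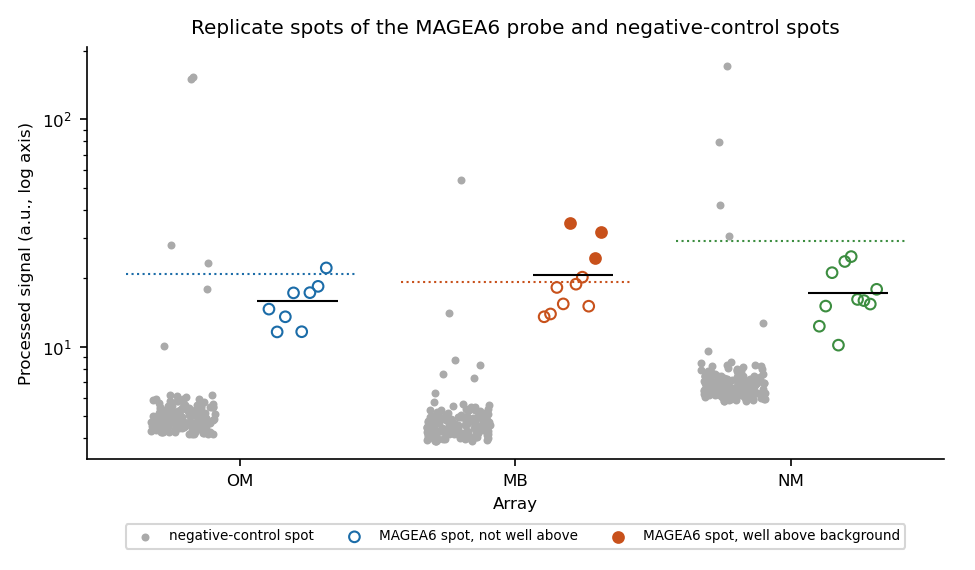
Signal of each used spot of the MAGEA6 probe (coloured, filled where well above background) and of the 153 negative-control spots (grey) on OM, MB and NM, on a log axis in a.u. Black bars are the means of the MAGEA6 spots, 15.9, 20.7 and 17.3 a.u., dotted lines the lowest signal marked well above background, and on each array at least 1 negative-control spot lies above every MAGEA6 spot.

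The remaining MAGE-A genes (MAGEA2B, MAGEA4, MAGEA8, MAGEA9, MAGEA10 and MAGEA11) were at background throughout. Of 8 MAGE-B genes, MAGEB2 was above background on MB alone, at 28.03 a.u. against 18.4 a.u. on OM and 19.6 a.u. on NM, at least 1.37-fold higher on MB than on OM. MAGEB1, MAGEB3, MAGEB4, MAGEB5, MAGEB6, MAGEB10 and MAGEB18 were at background on all arrays, as were the 3 MAGE-C genes MAGEC1, MAGEC2 and MAGEC3.

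GAGE, PAGE and XAGE genes form a superfamily of small acidic proteins encoded on the X chromosome. All 3 GAGE genes (GAGE1, GAGE3 and GAGE7) and all 5 PAGE genes (PAGE1, PAGE2, PAGE2B, PAGE4 and PAGE5) were at background on each array. XAGE1 had the widest difference between populations among the measured member genes. Its probe, at chrX:52074162-52074221 in hg17, opens with the 30 bases shown here because the only call at 2-fold rests on it.
XAGE1: ggtgatctgcaagagctgcatcagtcaaac

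XAGE1 gave 117 ± 12.8 a.u. on OM, 39.6 ± 6.12 a.u. on MB and 54.6 ± 8.89 a.u. on NM, above background on all 3 arrays. OM was high and MB and NM were low. After scaling XAGE1 was 2.89-fold lower on MB than on OM, a log2 ratio of -1.53 with a technical SD of 0.36, which rests on 2 probes printed in 10 spots at that brightness. NM was 1.88-fold lower than OM (log2 -0.91, technical SD 0.19) and 1.54-fold higher than MB (log2 0.62, technical SD 0.24). The differences from OM were 4.26 and 4.75 times the technical SD of their log2 ratio. By the software's error model the errors of these log2 ratios were 0.27 (MB over OM) and 0.28 (NM over OM). Of all 20692 genes measured on both MB and OM, 1.315% had an MB over OM ratio as low, as did 2.03% of the 3844 genes whose brighter signal was within 2-fold of that of XAGE1. The size depends on the background that is subtracted, and the log2 ratio of XAGE1 for MB over OM was -0.86 without subtraction and -0.69, or 1.61-fold lower, with normexp correction. Negative-control spots of OM reached 153 a.u., above the XAGE1 signal. XAGE2, XAGE5 and XAGE3 were at background on the arrays where they could be read, and the XAGE3 spot on OM was left out as an outlier.

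SSX proteins are transcriptional corepressors, known from the fusion with SS18 in synovial sarcoma. SSX2 was above background on all arrays, at 138 ± 14.6 a.u. on OM, 108 ± 11.6 a.u. on MB and 124 ± 13.9 a.u. on NM. SSX5 gave 45.5 ± 6.61 a.u. on OM, 35.1 ± 5.66 a.u. on MB and 31.7 ± 7.42 a.u. on NM, and was marked on OM and MB. Unscaled, both genes were highest on OM. SSX2 was 1.25-fold lower on MB than on OM, 3.57 times the technical SD, and 1.02-fold higher on NM than on OM, 0.39 times the SD. Its log2 ratio for MB over OM was -0.32, with an error of 0.22 by the software's error model. SSX5 was 1.27-fold lower on MB than on OM, 0.95 times the SD, and at least 1.26-fold lower on NM.

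The SSX2 probe shares 27 bases with those of SSX5 and SSX9, shown with the bases that differ from SSX2 in capitals. The probes lie at chrX:52670024-52670083 for SSX2, chrX:47805834-47805893 for SSX5 and from chrX:47912590-47915360 for SSX9, whose probe spans an intron.
SSX2: ggaaaaccaactacctctgagaagatt
SSX5: ggaaaacTaaAtacctctgagaagGtt
SSX9: ggaaaaccaactacctctgagaagatt

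SSX9, now regarded as a pseudogene, holds the same 27 bases and was at background on each array, while over 50 bases SSX2 and SSX5 are 86% identical. How much of the SSX5 signal came from SSX2 transcripts was not tested. A second SSX2 probe, at chrX:52665308-52665367, did not follow the first, with 4.60 a.u. on OM, 4.28 a.u. on MB and 46.1 a.u. on NM. It was at least 2.65-fold higher on NM than on MB and at least 2.51-fold higher than on OM, where the brighter probe gave 1.28-fold and 1.02-fold. The gene was represented by the brighter probe. SSX1, SSX3, SSX4, SSX6, SSX7 and SSX8 were at background.

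CTAG1A, which encodes the antigen NY-ESO-1 and has an identical neighbouring copy, was above background on OM alone. It gave 25.7 ± 5.51 a.u. on OM, 5.25 ± 4.52 a.u. on MB and 18.5 ± 7.02 a.u. on NM, and was at least 1.298-fold lower on MB than on OM. Its close relative CTAG2 was at background on all arrays.

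The CTAGE genes were the largest group of members with a like pattern over the arrays. Of 6 CTAGE genes, 5 were above background on all 3 arrays, and each of these was lowest on OM, higher on MB and highest on NM. CTAGE4 gave 667 a.u. on OM, 1041 a.u. on MB and 1126 a.u. on NM by its brighter probe and 619, 991 and 1073 a.u. by the other. CTAGE5 gave 657 a.u. on OM, 974 a.u. on MB and 1115 a.u. on NM. For both genes MB lay nearer to NM than to OM. CTAGE1 gave 96.1, 142 and 156 a.u. on OM, MB and NM by 1 of its 3 probes, the other 2 being at background. CTAGE6 gave 112, 142 and 182 a.u., and the pseudogene CTAGEP, now CTAGE7P, gave 135, 196 and 236 a.u. on these arrays. CTAGE3 was at background throughout.

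After scaling, NM over OM was 1.93-fold for CTAGE4, 1.93-fold for CTAGE5, 1.85-fold for CTAGE1, 1.85-fold for CTAGE6 and 1.99-fold for CTAGEP, all just under 2-fold. The median over the 5 genes was a log2 ratio of 0.95, against 0.09 over all genes measured in this comparison. For CTAGE4, 4.58% of all 19392 measured genes had a ratio as high, and for CTAGE6, which had the lowest ratio of these genes, 5.54% had. The technical SD of the log2 ratio was 0.09 for each of these genes but CTAGE1, for which it was 0.19. The software's error model gave errors of 0.20 to 0.23 for these log2 ratios. MB over OM was 1.597-fold for CTAGE4, 1.52-fold for CTAGE5, 1.51-fold for CTAGE1, 1.48-fold for CTAGEP and 1.29-fold for CTAGE6. Each of the 5 genes was higher in both populations that had been in hESC medium, by more than the technical SD, except that with spike-in scaling CTAGE6 had a log2 ratio of 0.061 for MB over OM, within it.

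Many of these probes share long stretches, so that transcripts of one gene may bind probes of another. The CTAGE1 probe that was above background had no such match among the probes of the array. The 29 bases below are shared by the CTAGE4 probes and 2 probes of CTAGE5, and the bases that differ from the brighter CTAGE4 probe are in capitals. The CTAGE4 probes lie at chr7:143320614-143320673 and chr7:143320625-143320684, and those of CTAGE5 at chr6:132071391-132071450 and chr14:38889194-38889253, on hg17.
CTAGE4, brighter probe: accacagcaagaaacctgacaatattgtt
CTAGE4, other probe: accacagcaagaCacctgacaatattgtt
CTAGE5, chromosome 6: accacagcaagaCacctgacaatattgtt
CTAGE5, chromosome 14: accacagcaagaaacctgacaatattTtt

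The CTAGE5 probe on chromosome 6 holds 40 bases that are 100% identical to a CTAGE4 probe, and gave 64.5, 106 and 123 a.u. on OM, MB and NM. It was 2.18-fold higher on NM than on OM. CTAGE6 is 91.5% identical to the brighter CTAGE4 probe over 47 bases, and CTAGEP 94.9% identical to the CTAGE5 probe of chromosome 14 over 39 bases. A probe of an unnamed transcript, 95.3% identical to CTAGE4 over 43 bases, gave 356, 550 and 602 a.u., 1.93-fold higher on NM than on OM. The CTAGE5 probes that read other stretches differed from this order. A probe that spans a splice junction, at chr14:38832304-38832981, gave 29.5 a.u. on OM, 25.4 a.u. on MB and 32.2 a.u. on NM, with NM over OM of 1.24-fold, 1.39 times the technical SD. Another was above background on MB alone, at 20.5 a.u., and the last was at background. Whether the shared pattern came from 1 transcript read by all the alike probes was not tested.

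SSX2IP gave 702 a.u. on OM, 859 a.u. on MB and 872 a.u. on NM, 1.25-fold higher on MB and 1.42-fold higher on NM than on OM, 3.61 and 5.86 times the technical SD. The log2 ratios were 0.32 and 0.50, each with an error of 0.20 by the software's error model.

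**Figure D3:**
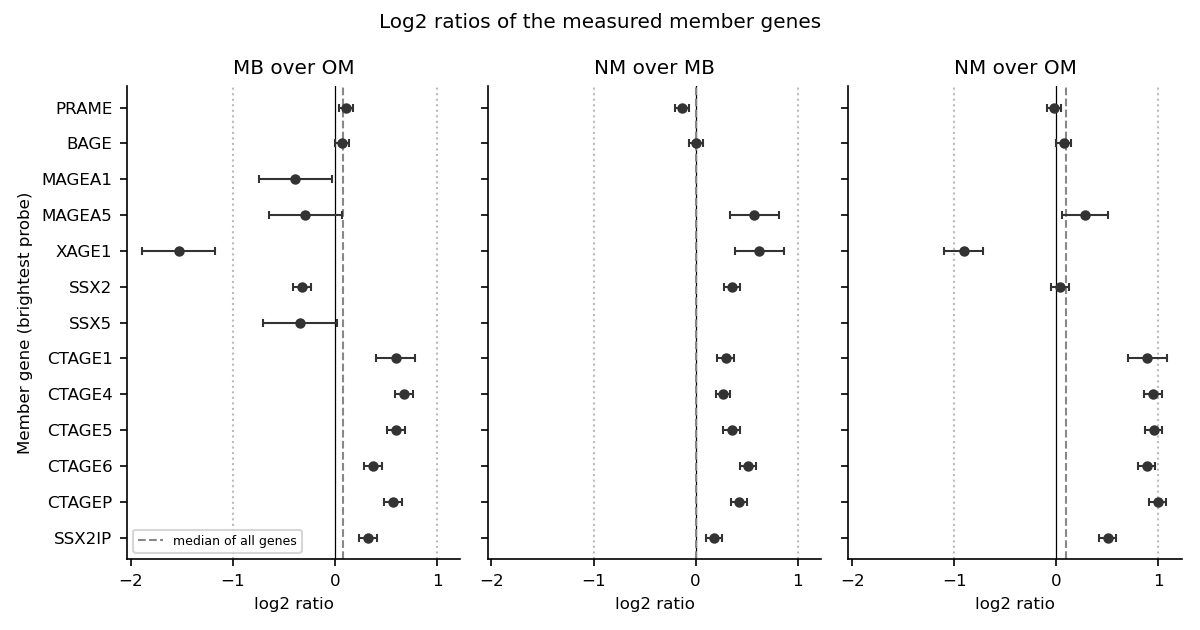
Log2 ratios of the member genes measured on both arrays, by their brightest probe, for MB over OM, NM over MB and NM over OM, with bars of 1 technical SD of a single spot. The dashed line is the median of all measured genes (0.08, 0.00 and 0.09), the dotted lines mark 2-fold, XAGE1 alone lies beyond 2-fold for MB over OM, and the CTAGE genes lie between 0.88 and 0.99 for NM over OM.

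Read by comparison, few members stood 2-fold or more apart. For MB over OM, 17 member genes had a measured ratio or a bound, of which 0 were 2-fold or more higher, against 6.66% of all genes, and 1 was lower, XAGE1, against 4.65%. For NM over MB, 0 of 16 were higher, against 9.86%, and 0 lower, against 12.4%. For NM over OM, 0 of 14 were higher, against 4.58%, and 0 lower, against 5.9%. In these 3 comparisons 13, 11 and 11 member genes had a measured ratio. Among all genes 20692 of 22209, 19330 of 21925 and 19392 of 21587 were measured. The other members had only a bound and were too faint on the brighter array for it to reach 2-fold. Their place in these counts was fixed in advance, so the low counts partly reflect faintness. At a threshold of 5-fold with over 100 a.u. on the brighter array, 0 member genes stood apart in any of the 3 comparisons. Of all genes, 183 were higher and 123 lower of 22209 for MB over OM. For NM over MB 297 were higher and 402 lower of 21925, and for NM over OM 134 and 97 of 21587. Whether the member genes differ from all genes at this threshold was not tested, and they are few. The count for NM over OM depends on the scaling, since the CTAGE genes and XAGE1 lay just under 2-fold. Quantile normalization put CTAGE1, CTAGE6 and CTAGEP over it, and scaling to the 75th percentile put XAGE1 past it.

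The median log2 ratio of the measured member genes was 0.11 over 13 genes for MB over OM, 0.35 over 11 genes for NM over MB and 0.50 over 11 genes for NM over OM. All genes measured had medians of 0.08, 0.00 and 0.09. Without the CTAGE genes and SSX2IP the medians were -0.32 over 7 genes, 0.35 over 5 genes and 0.03 over 5 genes. Among those 7 genes, PRAME and BAGE were higher on MB than on OM and MAGEA1, MAGEA5, XAGE1, SSX2 and SSX5 lower. The sign of PRAME turned with 75th percentile and spike-in scaling, that of BAGE with these and with quantile normalization, and that of MAGEA1 with normexp correction.

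Other genes of the germ line and its silencing were read from lists of names. For these lists and the markers below, the shares of all genes above background were 68.9% (OM), 69.7% (MB) and 63.5% (NM). The shares 2-fold higher and lower were 6.66% and 4.65% for MB over OM. They were 9.86% and 12.4% for NM over MB, and 4.58% and 5.9% for NM over OM. No list was tested against these shares. Of 49 other cancer-testis genes with a probe, OM had 25 above background, MB 26 and NM 21. For MB over OM, 0 of 27 were 2-fold higher and 2 lower, DDX43, an RNA helicase, at least 3.99-fold, and DDX53, a related helicase, 2.52-fold. DDX43 gave 79.0 a.u. on OM and was at background on MB and NM, and DDX53 gave 79.6 a.u. on OM, 30.9 a.u. on MB and 10.7 a.u. on NM, where it was at background. These, like XAGE1, were brightest on OM. For NM over MB, 1 of 26 was higher, the ferritin-like FTHL17 at 3.71-fold, and 3 were lower, the sperm tail proteins ROPN1 and ROPN1B and the meiotic protein TEX15. For NM over OM, 2 of 25 were higher, TKTL1, a transketolase-like enzyme, at 2.34-fold and FTHL17 at 2.07-fold, and DDX43 and DDX53 were lower. The highest measured log2 ratio for MB over OM was 0.86, for ROPN1, which also had the lowest for NM over MB, -1.70, and for NM over OM, -0.84. The medians were -0.11, 0.29 and 0.04. SAGE1, CTCFL, FATE1 and BRDT were at background on every array.

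Type II MAGE genes are relatives of the MAGE-A, MAGE-B and MAGE-C genes and most are widely expressed. MAGEE1 stands in this list and among the other cancer-testis genes. Of 10, 8 were above background on each array, and 0 were 2-fold apart in any comparison. MAGED1, an adaptor of neurotrophin receptor signalling, gave 45070 a.u. on OM, 48257 a.u. on MB and 23235 a.u. on NM, the lowest log2 ratio of the list for NM over MB, -0.90. TRO, a cell adhesion protein, gave 4952, 8434 and 5104 a.u., the highest for MB over OM, 0.80. MAGEE1 was lowest for MB over OM, -0.18, MAGED1 for NM over OM, -0.77, and the highest were MAGEH1 for NM over MB, -0.01, and NSMCE3 for NM over OM, 0.30. NDN, the imprinted necdin, was at background. The medians were 0.20, -0.36 and -0.16.

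Of 40 genes of DNA methylation, histone modification and germline gene repression, 38 were above background on OM and MB and 37 on NM. For MB over OM 0 of 38 were 2-fold apart, with a median log2 ratio of 0.39, and values from -0.46 for the transcription factor ETS1 to 0.99 for MBD3, a subunit of the NuRD complex. DNMT1, which maintains DNA methylation, gave 7118 a.u. on OM, 9968 a.u. on MB and 6124 a.u. on NM, and its cofactor UHRF1 gave 6808, 11888 and 6249 a.u. Both were highest on MB, at 1.43-fold and 1.79-fold over OM. The de novo enzyme DNMT3B was lower on MB, with a log2 ratio of -0.41. For NM over MB, 3 of 38 were lower, against 12.4% of all genes, and 0 higher, against 9.86%. The 3 were MBD3, the histone methyltransferase SUV39H2 and MGA, which represses germline genes with E2F6, and the list median was -0.34. For NM over OM, MGA alone was lower, at 3.48-fold, with a median of 0.11 over the list. The highest log2 ratios were 0.70 for the corepressor SIN3A in NM over MB and 0.90 for the transcription factor ETS2 in NM over OM. DNMT3L and CTCFL were at background.

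The ligases, substrates and receptors with which MAGE proteins and PRAME are known to work were nearly all present. Of 23 genes, 23 were above background on OM and MB and 22 on NM, where NCOA2 was not. TRIM28 gave 9956 a.u. on OM, 13759 a.u. on MB and 8034 a.u. on NM, and CUL2 1348, 1419 and 1525 a.u. For MB over OM 0 genes reached 2-fold, the retinoid receptor RXRA coming nearest with 3201 and 6247 a.u. RARB, a retinoic acid receptor, had the lowest log2 ratio, -0.76. For NM over MB 3 of 23 were lower, against 12.4% of all genes, namely RXRA, the Notch target HES1 and the coactivator NCOA2. For NM over OM 0 were apart. HES1 had the lowest log2 ratio in both, -1.81 and -0.82, and the highest were 0.61 for ELOC, an elongin subunit of the CUL2 ligase, and 0.65 for the retinoic acid receptor RARA. The medians were 0.19, -0.24 and -0.02.

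**Figure D4:**
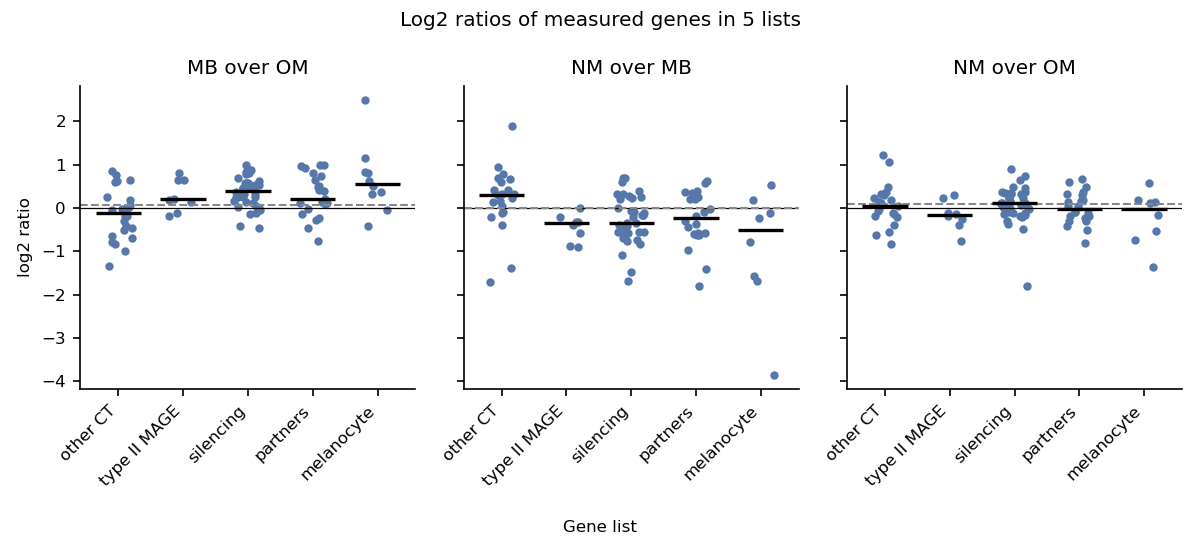
Log2 ratios of the genes measured on both arrays in 5 lists (other cancer-testis genes, type II MAGE genes, genes of germline silencing, partners of MAGE and PRAME, melanocyte markers) for MB over OM, NM over MB and NM over OM. Each point is a gene, black bars are list medians (0.39 for the silencing list in MB over OM, -0.34 in NM over MB) and the dashed line is the median of all genes.

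The line was checked against markers. Of 13 melanocyte lineage genes, 10 were above background on OM and MB and 8 on NM. SOX10 gave 6254 a.u. on OM, 9382 a.u. on MB and 4887 a.u. on NM, and MITF 423, 718 and 551 a.u., while the pigment enzymes TYR and TYRP1 and the receptor KIT were at background. A further pigment enzyme, DCT, was above background on all arrays, at 66.7, 62.8 and 64.1 a.u. For MB over OM 2 of 10 were 2-fold higher and 0 lower, the receptor ERBB3 at 5.63-fold and the calcium-binding S100A1 at 2.21-fold, and the lowest log2 ratio was -0.42 for the melanosome protein PMEL. For NM over MB 0 of 10 were higher and 3 lower, ERBB3 at 14.4-fold, S100A1 and S100B, and for NM over OM ERBB3 alone was lower, at 2.55-fold. ERBB3 gave 737 a.u. on OM, 4055 a.u. on MB and 253 a.u. on NM. Of 14 germ cell genes OM had 4 above background, MB 6 and NM 3. The meiotic SYCP2 gave 1187, 1136 and 1162 a.u. on OM, MB and NM, and SYCP1 and the sperm protease ACR were above background on all 3 arrays at lower signals. The germ cell helicase DDX4 and the meiotic SYCP3 were at background. TNP1, a sperm chromatin protein, gave 230 a.u. on MB alone, from a single spot. Of the markers of other cell types, 3 of 6 keratinocyte, 3 of 4 leukocyte, 3 of 4 endothelial and 3 of 7 fibroblast genes were above background on at least 1 array. The leukocyte gene PTPRC, the endothelial CDH5, the fibroblast COL1A1, COL1A2 and COL3A1 and the keratinocyte KRT5 were at background. In RNA of whole cultures, fewer cells that express a gene and less RNA per cell cannot be told apart.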

How the data were processed

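RNA of 3 populations was hybridised to 3 arrays (Agilent 1-colour, Cy3, design 014850), 1 each, on 1 slide. The authors deposited the intensity of each spot from Feature Extraction version 9.5.3.1 (9.5 in the submitters' processing notes), in which a fitted spatial surface was subtracted as background (100% of spots) and 17.1%, 16.1% and 21.9% of spots (OM, MB, NM) hold a surrogate for a low value. No scaling between arrays is recorded. The deposited series table holds the same intensity values on 43376 of 43376 spots of each array, within 0.1%. Gene names and hg17 positions are those of the files. A genome and annotation of that build were not used here, so exons and UTRs are not given. Of the 54 member names 50 matched a current gene table (of GRCh38.p14).

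Control spots were dropped, as were 77 (OM), 79 (MB) and 81 (NM) outlier spots. Spots of a probe were averaged, and each array was scaled to a mean of 3 housekeeping genes (GAPDH, ACTB, HSP90AA1), read from their probes of 10 spots. A gene was represented by its probe of highest mean signal. A ratio was measured where that probe was well above background on both arrays. Otherwise it is a lower bound against the dim probe's signal or the array's lowest signal well above background, whichever is higher. The technical SD of a log2 ratio comes from the 264 probes printed in 10 spots, by brightness of the dimmer array. At 20 to 50 a.u. this SD rests on 2 (MB over OM), 5 (NM over MB) and 4 (NM over OM) probes. It is the spread of spots within arrays and holds no labelling or hybridisation differences between arrays. No p-value is given, since there is 1 array a population, which also limits the precision. Every member above background on at least 1 array is named with its values, and from the gene lists and the melanocyte markers the genes of highest and lowest measured ratio, with defining genes at background. Members and lists were chosen with earlier results of these data known. Probes were aligned with blastn 2.17.0. Alternatives used limma for normexp. The fold and call steps were tested on simulated data. Python 3.11.15, numpy 2.4.6, pandas 2.3.3 and matplotlib 3.10.9 were used.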

Additional observations from a re-analysis of the deposited data

Results flagged for a closer look

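The XAGE3 probe gave 3813 a.u. on OM, in a spot that was left out because the software marked its pixels as non-uniform. The mean of its pixels was 3915 and their median 180, where the local background was 45. On MB and NM the same probe gave 12.9 and 12.2 a.u., not well above background. Of the 24 spots within 2 positions of it, 1 was 5-fold or more brighter on OM than on MB. With outlier spots kept, XAGE3 became a 2-fold lower gene on MB and on NM against OM.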

How the results depend on the processing

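The count of member genes 2-fold apart in MB over OM (1, XAGE1) was 0 with normexp (offset 50), without background subtraction, at 5-fold with over 100 a.u. and with both arrays over 100 a.u., and 2 with outlier spots kept, where XAGE3 joined. For NM over OM (0) it was 1 with 75th percentile scaling, no scaling, spike-in scaling (6 probes) or outlier spots kept, and 3 with quantile normalization. The members' median log2 ratio for MB over OM (0.11) was -0.069 with 75th percentile scaling, -0.20 with spike-in scaling and 0.35 with both arrays over 100 a.u. That of NM over MB (0.35) was 0.44 with the 75th percentile, 0.51 with quantile normalization, 0.20 unscaled and 0.54 by spike-ins. That of NM over OM (0.50) was 0.41, 0.31 and 0.38 with the 75th percentile, no scaling and spike-ins, and 0.69 with both arrays over 100 a.u. Scaling moved the median of all genes too, by up to -0.31 (spike-ins, MB over OM). The following 2 choices were made after seeing the data. Without the CTAGE genes and SSX2IP the medians of MB over OM and NM over OM were -0.32 and 0.034, and the members above background numbered 8, 10 and 5 on OM, MB and NM. Above every negative-control spot lay 5, 9 and 7 members. With the software's weaker mark, positive and significant, 29, 27 and 24 members counted, and with over 100 a.u. 9 on OM and 9 on MB. Of 315 log2 ratios of single named members under the alternatives, 203 moved by less than the technical SD, 112 by more and 18 changed sign, none of them past 2-fold at first. The 203 include 35 ratios from the deposited series table, which could not move because it holds the same intensities. XAGE1 in MB over OM ranged from 1.61-fold to 3.575-fold lower and kept its direction. No paired analysis was possible because each population has 1 array.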
